A study of Homo sapiens with 8 samples.

Results

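The 9 genes described here are LGSN and 8 enzymes of glutamine metabolism, namely GLUL, GLS2, GLUD1, GLUD2, GFPT1, GFPT2, GOT1 and GOT2, out of 57500 genes counted and 19171 tested. LGSN was selected on its normalized counts in these libraries, as the strongest rise from Control to DZNep, so its values are given as a description and without a test. The other 8 were taken for their function. RNA-seq was measured in 8 libraries of HEK293T cells, a line derived from human embryonic kidney that carries the SV40 large T antigen. Control cells (4 libraries) received vehicle and DZNep cells (4 libraries) received 100 µM DZNep, in both cases for 48 h. DZNep is 3-deazaneplanocin A, an inhibitor of S-adenosylhomocysteine hydrolase that raises S-adenosylhomocysteine and thereby inhibits methyltransferases. All libraries came from 1 line at 1 dose and 1 time point. The labels name DMEM as the medium and the methods of the study name RPMI, and the glutamine supplied was not given in the sources used here.

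Library totals ran from 25043058 counts (Control 1) to 44902779 counts (DZNep 2), and mitochondrial transcripts took from 3.02% to 13.7% of them. In both groups that share was higher in replicates 1 and 4 than in replicates 2 and 3. Of 8 transcripts fixed as markers of embryonic kidney epithelium, 7 were high enough to test, and PAX8 had at most 8 counts in any library. Their summed normalized count ran from 6906 to 8658 in Control and from 12563 to 13363 in DZNep, with KRT8 and KRT18, which encode epithelial keratins, among the 5 that rose by the adjusted p explained below, while PAX2 and LHX1 fell. Over all genes tested, 19.1% rose and 21.8% fell by that rule. RNA was taken from whole cultures, so fewer cells with a transcript and less of it per cell cannot be told apart.

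Glutamine is made from glutamate and ammonia by glutamine synthetase, and glutaminases return it to glutamate. Glutamate then enters the citric acid cycle through glutamate dehydrogenase or through aminotransferases, while the amide nitrogen of glutamine feeds nucleotide and hexosamine synthesis. Lengsin, the product of LGSN, is a member of the glutamine synthetase family known from the fibre cells of the eye lens, where it is held to act as a structural protein rather than as an enzyme.

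The sequences just upstream of 3 of these genes are shown because LGSN was picked for its rise and because GLUD2 and GFPT2 were the other members that moved past both thresholds used below. Each line holds the 250 bases before the RefSeq start (GRCh38.p14), written 5′ to 3′ on the strand of the gene, with every CG dinucleotide, the site of DNA methylation, in capitals. The LGSN window is chr6:63319984-63320233 (minus strand), the GLUD2 window is chrX:121047360-121047609 (plus strand), and the GFPT2 window is chr5:180353337-180353586 (minus strand).
LGSN: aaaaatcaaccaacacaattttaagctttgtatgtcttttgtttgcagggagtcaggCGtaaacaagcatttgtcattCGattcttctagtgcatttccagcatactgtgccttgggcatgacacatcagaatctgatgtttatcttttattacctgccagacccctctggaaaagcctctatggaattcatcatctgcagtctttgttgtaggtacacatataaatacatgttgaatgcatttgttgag
GLUD2: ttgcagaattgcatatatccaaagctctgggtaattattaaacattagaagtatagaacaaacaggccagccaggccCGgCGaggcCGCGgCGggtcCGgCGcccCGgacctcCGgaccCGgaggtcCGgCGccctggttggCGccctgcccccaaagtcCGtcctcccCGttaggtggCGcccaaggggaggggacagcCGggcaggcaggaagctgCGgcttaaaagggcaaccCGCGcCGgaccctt
GFPT2: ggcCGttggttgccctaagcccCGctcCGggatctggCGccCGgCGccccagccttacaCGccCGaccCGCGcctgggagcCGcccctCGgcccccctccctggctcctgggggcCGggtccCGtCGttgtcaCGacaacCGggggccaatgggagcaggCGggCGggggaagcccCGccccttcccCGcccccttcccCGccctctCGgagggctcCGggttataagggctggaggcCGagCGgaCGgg
The LGSN window held 2 CG dinucleotides, against a median of 11 over 35116 RefSeq windows of the same length, 22.9% of which held 2 or fewer. The GLUD2 window held 21 and the GFPT2 window 27. In base composition, G and C made up 38.4% of the LGSN window, 64.4% of the GLUD2 window and 76.8% of the GFPT2 window.

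All 9 genes matched the RefSeq table, with 10 windows between them. The other windows held between 10 CG dinucleotides (GLS2) and 41 (GLUD1 and GFPT1), so LGSN stood alone among the 9 in its low count. The GLUL and GLS2 windows lay wholly within annotated exons (250 bases each), while the LGSN window held 0 exon bases. The TATA box core TATAAA, searched on both strands after the LGSN window had been read, was found in that window and in no other member's window, and in 10.7% of all windows. The core TGATGNAA of the response element of C/EBP and ATF factors, also searched on both strands, was found in the GOT1 window and in 3.14% of all windows. These are matches of letters, and no binding or methylation was measured.

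LGSN (ENSG00000146166) lies at chr6:63275951-63319983 on the minus strand of GRCh38. Its normalized count, the read count divided by 1 size factor per library, was 4.62, 2.68, 1.79 and 4.30 in Control 1 to 4. In DZNep 1 to 4 it was 171, 238, 203 and 169. Thus LGSN was near the limit of detection in every Control library and clearly counted in every DZNep library, with no overlap.

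The mean was 3.35 ± 1.34 in Control and 195 ± 32.5 in DZNep (SD, n = 4), and the fitted log2 difference was 5.85 (SE 0.32). These means rest on 3, 3, 2 and 4 reads in Control and on 188, 295, 235 and 150 reads in DZNep. Summed and scaled, the ratio was 62.9, with an exact 95% interval of 35.8 to 122 that covers counting error only. With 1 added to each normalized count, the log2 ratio within libraries of the same replicate number was 4.93, 6.02, 6.19 and 5.0. It was lower in replicates 1 and 4 than in 2 and 3. LGSN was lower in replicates 1 and 4 in DZNep and higher in them in Control, and the part of the mitochondrial share in this was not tested. The order in Control rests on 3, 3, 2 and 4 reads, whose 95% counting intervals overlap.

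Among the genes tested, 38 had a larger fitted log2 fold change than LGSN, and 36 of them had 3 counts or fewer in every Control library. The gene just above LGSN in that order was ENSG00000227512 at 5.94 and the gene just below was FRG2B at 5.77. Among genes whose log2 CPM averaged 1 or more, only ENSG00000275092 (6.25) and ENSG00000273199 (6.18), neither of which has a symbol, stood above LGSN. No annotated gene overlaps LGSN, and no 150-base window of its transcript occurs in the transcripts of another gene, so its reads are not shared with a copy.

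The nearest protein-coding genes on either side of LGSN did not pass the test. FKBP1C, an FKBP-family gene 62927 bases away, had a normalized count of 14.0 ± 4.22 in Control and 20.6 ± 3.61 in DZNep (SD, n = 4), a log2 fold change of 0.51 (SE 0.32, adjusted p = 0.233). PTP4A1, a protein tyrosine phosphatase gene 201763 bases away, had 7033 ± 1462 and 6655 ± 731, a log2 fold change of -0.11 (SE 0.18, adjusted p = 0.67). Adjusted p-values here and below come from edgeR's quasi-likelihood test over all 19171 genes with Benjamini-Hochberg adjustment.

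**Figure D1:**
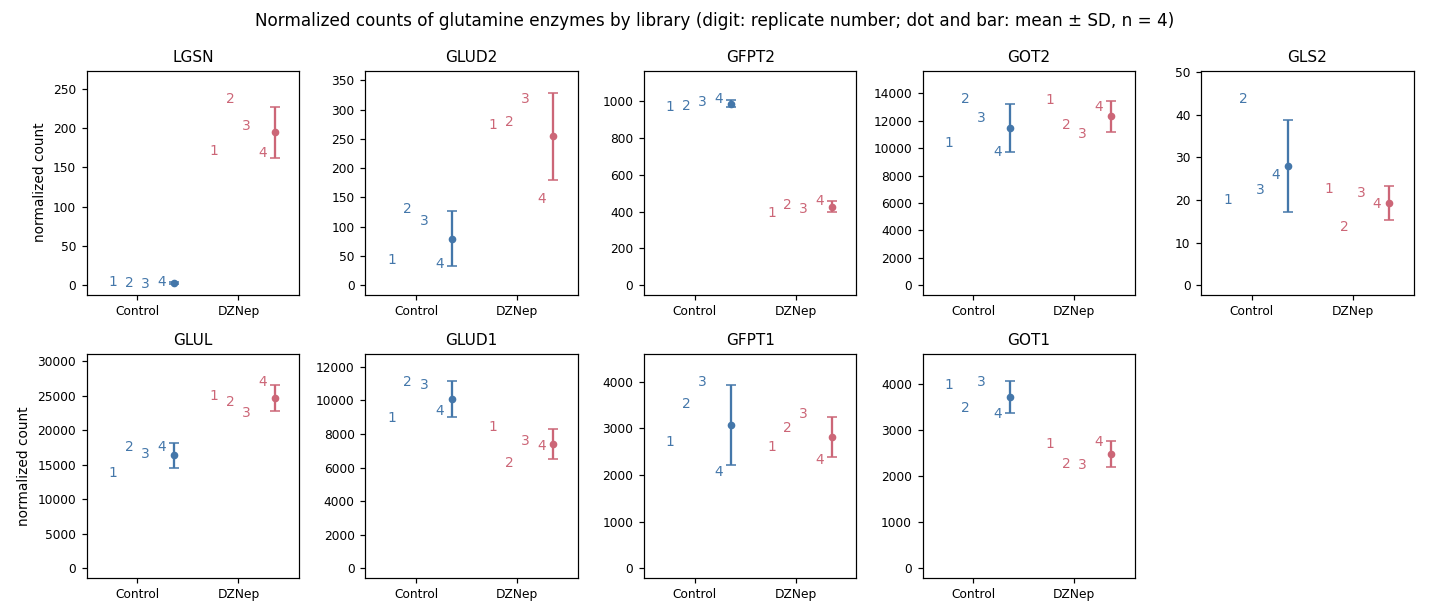
Normalized count (vertical axis, linear, with its own range in each panel) of the 9 genes in each Control and DZNep library. Digits are replicate numbers, and the dot and bar give the mean ± SD of 4 libraries. LGSN lies between 1.79 and 4.62 in Control and between 169 and 238 in DZNep, and GFPT2 falls from a narrow band at 968 to 1012 to one at 391 to 459.

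Among the 8 genes taken for their function, 1 rose (GLUD2) and 1 fell (GFPT2) at an adjusted p under 0.05 with an absolute log2 fold change over 1. Over all genes tested, 10.6% rose and 13.5% fell by the same rule. By the adjusted p alone, GLUL and GLUD2 rose while GLUD1, GFPT2 and GOT1 fell, against 19.1% and 21.8% of all genes. The same genes were those whose groups did not overlap, as was the case with DZNep above for 19.5% and with DZNep below for 19.4% of all genes. The median log2 fold change of the 8 was -0.31, and that of all genes was -0.03.

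GLUL (ENSG00000135821, chr1:182378098-182392206, minus strand) encodes glutamine synthetase, the active enzyme of the family to which LGSN belongs. Its normalized count was 13817, 17593, 16487 and 17615 in Control 1 to 4. In DZNep 1 to 4 it was 24978, 24107, 22491 and 26965. Every DZNep library lay above every Control library. GLUL rose 1.48-fold, a log2 fold change of 0.56 (SE 0.15, 95% interval 0.22 to 0.90, adjusted p = 0.0136), and it was higher in 4 of 4 libraries of the same replicate number.

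Both members of the family were thus higher in DZNep, on very different levels. Per kilobase of the MANE Select transcript and scaled to the library total (RPKM), GLUL went from 56.4 ± 7.46 to 87.6 ± 0.974 and LGSN from 0.0151 ± 0.00533 to 0.937 ± 0.200 (SD, n = 4). The share of LGSN in the summed RPKM of the pair was 0.0281% ± 0.0135 in Control and 1.06% ± 0.226 in DZNep. LGSN therefore stayed a minor transcript of the family in treated cells.

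GLS2 encodes a glutaminase, which converts glutamine to glutamate in mitochondria. GLS2 (ENSG00000135423, chr12:56470944-56488414, minus strand) had a normalized count of 20, 43.7, 22.4 and 25.8 in Control and of 22.7, 13.7, 21.6 and 19.1 in DZNep. Its groups overlapped, and the log2 fold change of -0.58 (SE 0.34, 95% interval -1.33 to 0.18) did not pass the test (adjusted p = 0.207). Most of its exon bases (77.1%) lie opposite exons of SPRYD4 on the other strand, and 30.1% of its 150-base windows are shared with other genes, so its few reads are uncertain.

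Glutamate dehydrogenase, which converts glutamate to 2-oxoglutarate and ammonia, is encoded by GLUD1 and by GLUD2, an intronless copy on the X chromosome. For GLUD1 (ENSG00000148672, chr10:87050202-87094843, minus strand) the normalized count was 8958, 11082, 10877 and 9335 in Control and 8410, 6295, 7579 and 7282 in DZNep. For GLUD2 (ENSG00000182890, chrX:121047610-121050094, plus strand) it was 43.2, 129, 109 and 35.5 in Control and 273, 279, 319 and 147 in DZNep. The 2 genes moved in opposite directions, with no overlap of the groups in either, although the closest GLUD2 libraries (129 in Control 2 and 147 in DZNep 4) were near each other.

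GLUD1 fell by 0.47 on the log2 scale (SE 0.15, 95% interval 0.13 to 0.81 below Control, adjusted p = 0.0303). Its call is a narrow one: when 1 library at a time was left out the adjusted p ran from 0.0297 to 0.0927, above 0.05 without Control 2, Control 3 or any 1 of the 4 DZNep libraries. GLUD2 rose 3.11-fold, a log2 fold change of 1.64 (SE 0.42, 95% interval 0.71 to 2.57, adjusted p = 0.0104), and it was higher in 4 of 4 replicate numbers. In both groups GLUD2 was lower in replicates 1 and 4 than in 2 and 3, the reverse of the mitochondrial share, whose part in the result was not tested. With 1 added to each normalized count, the log2 ratio of GLUD2 was 2.63 and 2.03 within replicates 1 and 4. Within replicates 2 and 3 it was 1.10 and 1.54.

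GLUD2 and GLUD1 share 9.67% of the 150-base windows of the GLUD2 transcript, and reads from these windows cannot be told apart. GLUD2 made up 0.995% ± 0.503 of the summed RPKM of the pair in Control and 4.40% ± 1.34 in DZNep (SD, n = 4). With the lengths of all exons of each gene in place of the MANE Select transcript these shares were 4.15% and 16.5%, so the level depends on the length taken.

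GFPT1 and GFPT2 encode glutamine:fructose-6-phosphate aminotransferase, the enzyme through which glutamine enters hexosamine synthesis. GFPT2 (ENSG00000131459, chr5:180300698-180353336, minus strand) had a normalized count of 968, 970, 993 and 1012 in Control and of 391, 437, 416 and 459 in DZNep. It had the narrowest spread of the 9 genes in Control relative to its mean, and its groups lay far apart. GFPT2 fell by 1.24 on the log2 scale (SE 0.13, 95% interval 0.96 to 1.52 below Control, adjusted p = 6.3e-05), which is 2.36-fold lower, and the fall was seen in 4 of 4 replicate numbers.

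GFPT1 (ENSG00000198380, chr2:69319780-69387250, minus strand) had 2713, 3517, 3995 and 2077 in Control and 2596, 3011, 3301 and 2331 in DZNep. The groups overlapped throughout, and its log2 fold change was -0.16 (SE 0.21, 95% interval -0.63 to 0.32, adjusted p = 0.589). Per length the pair was nearly level in Control, where GFPT2 made up 48.6% ± 7.44 of the summed RPKM, and GFPT2 made up 30.5% ± 4.00 of it in DZNep. With the lengths of all exons these shares were 38.4% and 22.4%.

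The aspartate aminotransferases GOT1, in the cytosol, and GOT2, in mitochondria, exchange the amino group between glutamate and aspartate and form part of the malate-aspartate shuttle. GOT1 (ENSG00000120053, chr10:99396870-99430624, minus strand) had a normalized count of 3973, 3480, 4043 and 3352 in Control and of 2697, 2262, 2233 and 2736 in DZNep. GOT1 fell by 0.61 on the log2 scale (SE 0.14, 95% interval 0.30 to 0.92 below Control, adjusted p = 0.00618), with no overlap of the groups. GOT2 (ENSG00000125166, chr16:58707131-58734342, minus strand) had 10363, 13606, 12193 and 9721 in Control and 13544, 11719, 11055 and 13004 in DZNep. These groups overlapped, and the log2 fold change of 0.08 (SE 0.16, 95% interval -0.28 to 0.43) did not pass the test (adjusted p = 0.728).

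In Control the order of levels per length was GOT2 (124 ± 28.2 RPKM), GLUD1 (79.8 ± 14.5), GLUL (56.4 ± 7.46), GOT1 (49.0 ± 8.07), GFPT1 (9.40 ± 3.32), GFPT2 (8.45 ± 0.698), GLUD2 (0.858 ± 0.55), GLS2 (0.307 ± 0.129) and LGSN. Over the 4 libraries the ranges of GOT2 and GLUD1, of GLUL and GOT1, of GFPT1 and GFPT2, and of GLUD2 and GLS2 overlapped. In DZNep GLUL (87.6 ± 0.974 RPKM) stood above GLUD1 (60.4 ± 7.98), and LGSN (0.937 ± 0.200) stood above GLS2 (0.218 ± 0.0488), in each case without overlap of their ranges. GFPT2 (3.78 ± 0.256) and GLUD2 (2.80 ± 0.956) were the only neighbours among the 9 genes whose ranges overlapped in DZNep. Both orders rest on MANE Select lengths and depend on the length taken. GLUD1 has 3300 bases by that measure and 14283 over all its exons, against 7554 and 12638 for GLUL.

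To ask whether the balance within a pair of paralogous genes shifted, the log2 ratio of their normalized counts (pseudocount 1) was compared by a two-sided exact permutation test over the libraries, adjusted over 4 ratios of which 3 are given. GLUD2 over GLUD1 went from -7.17 ± 0.78 to -4.90 ± 0.51 (SD, n = 4), a difference of 2.27 (exact p = 0.0286, adjusted p = 0.0381). GFPT2 over GFPT1 went from -1.60 ± 0.43 to -2.71 ± 0.27, a difference of -1.11 with the same exact p-values. GOT2 over GOT1 went from 1.62 ± 0.25 to 2.31 ± 0.05, a difference of 0.69, again with the same exact p-values. These 3 ratios moved without overlap, and 0.0286 is the smallest p that 4 against 4 libraries can give.

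LGSN over GLUL went from -11.93 ± 0.56 to -6.99 ± 0.31, which is given without a test. The ratios of GOT2 over GOT1 spread far less in DZNep than in Control. A test over the 4 pairs of libraries with the same replicate number gave an adjusted exact p of 0.167 for each of the 3 ratios, and the smallest p it allows is 0.125.

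**Figure D2:**
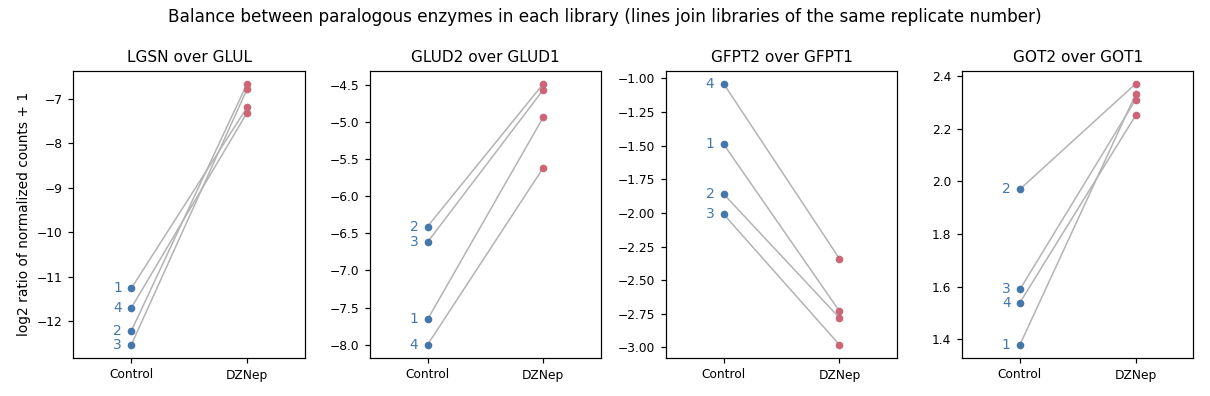
Log2 ratio of normalized counts + 1 (vertical axis, with its own range in each panel) between paralogous genes in Control and DZNep. Each point is a library, digits are replicate numbers, and lines join libraries of the same number. GLUD2 over GLUD1 and GOT2 over GOT1 rise and GFPT2 over GFPT1 falls in every pair.

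The genes whose pattern over the 8 libraries was most like that of LGSN, by Pearson's r of log2 (normalized count + 1), were CCN2 (r = 0.9984), BIRC3 (r = 0.9982) and DEPP1 (r = 0.996). CCN2 encodes a secreted matrix-associated growth factor and BIRC3 an inhibitor of apoptosis, and their log2 fold changes were 3.09 and 1.99, against 4.71 for DEPP1. For GLUL the 3 most alike were BAG1 (r = 0.9951), PSRC1 (r = 0.9919) and THAP11 (r = 0.991), of which BAG1 encodes a co-chaperone of HSP70. Of 13623 genes compared, 545 exceeded 0.95 with LGSN and 157 with GLUL. These points share 8 libraries in 2 groups, so any gene that separates the groups evenly reaches a high r.

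The wider metabolism of glutamine and glutamate was described over 7 lists holding 61 genes, of which 59 were tested. Past both thresholds 1 rose and 8 fell, against 10.6% and 13.5% of all genes, and by the adjusted p alone 8 rose and 19 fell, against 19.1% and 21.8%. The median log2 fold change was -0.29, against -0.03 over all genes. Past both thresholds none of these genes rose without Control 3, and 5 fell without Control 2.

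Of 12 glutamine amidotransferases and their relatives, which move the amide nitrogen of glutamine to other molecules, 3 fell past both thresholds and none rose. Among all genes tested, 13.5% fell and 10.6% rose by this rule. NIT2, an omega-amidase, went from a normalized count of 1511 ± 281 to 573 ± 104 (SD, n = 4; log2 fold change -1.43, adjusted p = 0.000265). NADSYN1, NAD synthetase, went from 1026 ± 187 to 392 ± 66.4 (-1.42, adjusted p = 0.000224), and GMPS, GMP synthetase, from 8918 ± 1406 to 4491 ± 144 (-1.02, adjusted p = 0.000509). GMPS was close to the fold threshold and short of it in 6 alternatives (-0.99 to -0.95) and without Control 2, Control 3, DZNep 3 or DZNep 4 in turn (-0.94 to -1.0), with an adjusted p under 0.05 throughout. By the adjusted p alone CTPS2 and QRSL1 also fell and GATC rose. ASNS, asparagine synthetase, had a log2 fold change of -0.57 that did not pass (adjusted p = 0.118).

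Among 10 other transaminases that use glutamate, GPT, an alanine aminotransferase, fell past both thresholds, from 55.3 ± 21.5 to 27.7 ± 7.0 (log2 fold change -1.03, adjusted p = 0.034). Without Control 2, Control 3, DZNep 1, DZNep 2 or DZNep 3 its adjusted p lay between 0.0521 and 0.112. Its relative GPT2 fell by 0.88 on the log2 scale (adjusted p = 0.000724), and PSAT1, KYAT1 and KYAT3 also fell by the adjusted p alone, while AADAT rose. Of 5 tested genes of proline synthesis, PYCR3, a pyrroline-5-carboxylate reductase, fell from 1312 ± 273 to 650 ± 62.8 (-1.04, adjusted p = 0.000949) and the other 4 did not pass. Without Control 2 or DZNep 3, PYCR3 was short of the fold threshold (-0.92 and -0.99). It was also short of it with library sizes alone (-0.96) and in limma (-0.99). In the GABA shunt, 2 of 3 tested genes fell by the adjusted p alone, ABAT (-1.0, adjusted p = 0.0018) and ALDH5A1 (-0.78, adjusted p = 0.0157). Among all genes, 21.8% fell by the adjusted p alone and 13.5% past both thresholds.

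Past the step that GFPT1 and GFPT2 catalyse, 1 of the 11 genes of hexosamine metabolism rose past both thresholds and none fell. Among all genes, 10.6% rose and 13.5% fell by this rule. The median log2 fold change of the 11 was 0.21, against -0.03 over all genes. AMDHD2, an N-acetylglucosamine-6-phosphate deacetylase, rose from 297 ± 123 to 618 ± 125 (log2 fold change 1.03, adjusted p = 0.0122). It was at 0.87, 0.99, 0.92 and 0.89, under the fold threshold, without Control 1, Control 3, Control 4 and DZNep 2 in turn. By the adjusted p alone GNPDA1 and UAP1L1 rose (0.88 and 0.48). GNE, which opens sialic acid synthesis, fell by 0.75 on the log2 scale (adjusted p = 0.0351). Of 7 genes of the malate-aspartate shuttle other than GOT1 and GOT2 and of mitochondrial glutamate carriers, none passed both thresholds, and SLC25A11, the 2-oxoglutarate carrier, fell by 0.66 on the log2 scale (adjusted p = 0.00815).

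Of 11 membrane carriers of glutamine and glutamate, 3 fell past both thresholds, against 13.5% of all genes. SLC1A3, a glutamate transporter, went from a normalized count of 1701 ± 178 to 515 ± 60.8 (log2 fold change -1.75, adjusted p = 2.31e-05) and its relative SLC1A1 from 413 ± 119 to 146 ± 38.1 (-1.52, adjusted p = 0.00121). SLC7A5, which exchanges glutamine for large neutral amino acids, went from 19980 ± 1532 to 8795 ± 985 (-1.21, adjusted p = 0.000185). By the adjusted p alone SLC7A11, the cystine-glutamate exchanger, fell (-0.51) and the glutamine carriers SLC38A3 (0.64), SLC38A5 (0.96) and SLC38A7 (0.48) rose.

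**Figure D3:**
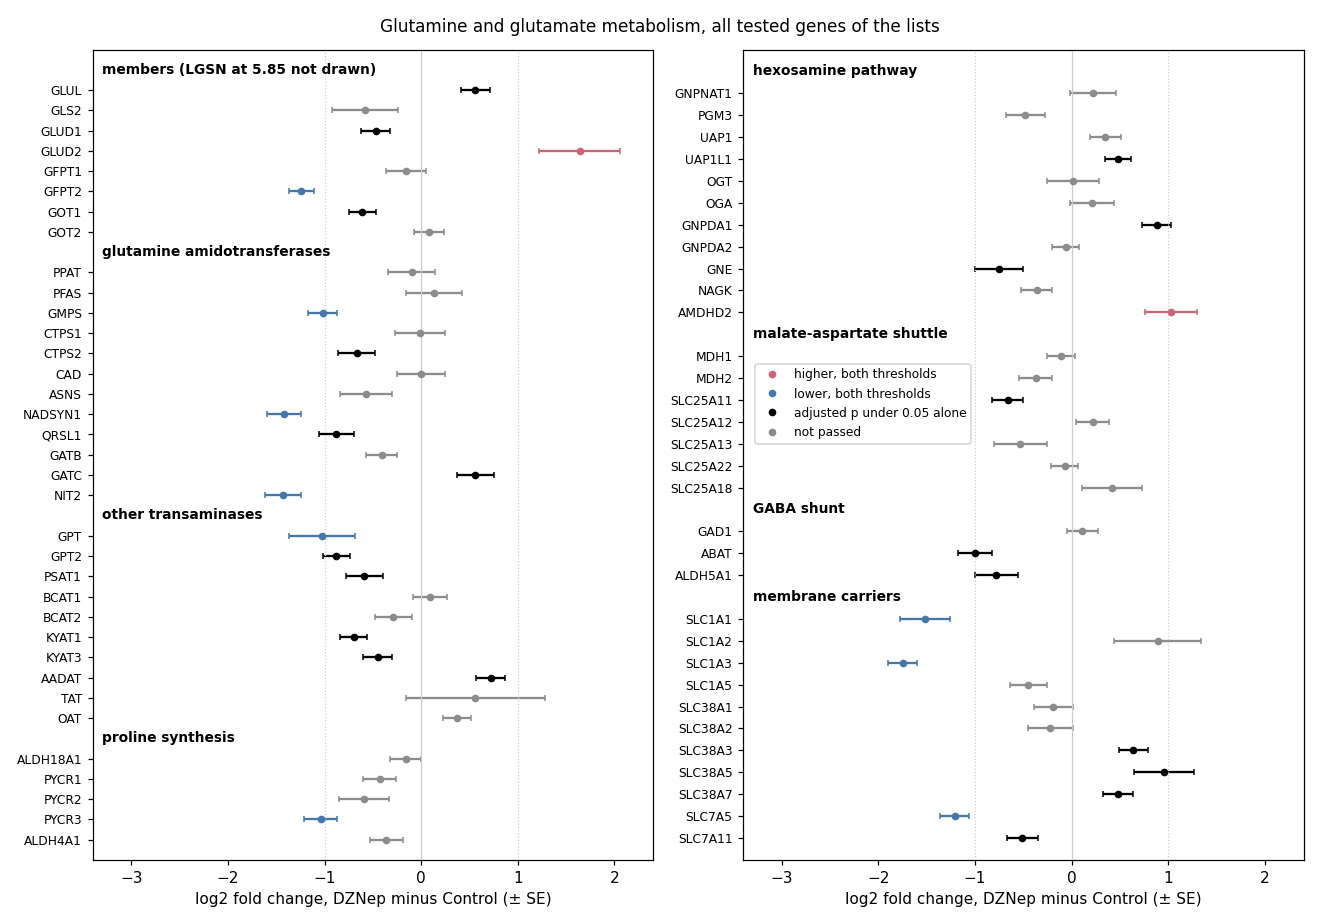
Log2 fold change, DZNep minus Control, ± SE (horizontal axis) of every tested gene of the lists, with 8 members at the top left. Red and blue points passed both thresholds, black points the adjusted p alone and grey points neither, and dotted lines mark a log2 fold change of 1 in either direction. GLUD2 and AMDHD2 are the red points, and GFPT2 is blue at -1.24.

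Because lengsin is known from the lens, 23 genes of lens fibre cells were looked at, of which 12 could be tested. Past both thresholds 3 rose and 1 fell, against 10.6% and 13.5% of all genes, and the median log2 fold change was 0.12. The crystallin transcript CRYGD rose from 265 ± 81.0 to 662 ± 153 (SD, n = 4, adjusted p = 0.00226). The crystallin transcripts CRYBB1 (4.93 ± 2.51 to 34.4 ± 4.62) and CRYBB2 (7.75 ± 5.6 to 55.1 ± 18.6), counted among the 3, were also higher in DZNep. CRYBB1 had 2, 4, 5 and 8 counts in Control 1 to 4, and CRYBB2 had 7, 5, 2 and 13. These 2 were high enough to test only through their DZNep libraries, so their values are given as a description.

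HSF4, a heat shock factor of the lens, fell from 54.8 ± 10.6 to 13.8 ± 3.4 (log2 fold change -2.01, adjusted p = 0.000582), and CRYAA, which encodes alpha-crystallin A, had 0 counts in every library. The summed normalized count of the list ran from 3316 to 4607 in Control and from 4139 to 4543 in DZNep. LGSN was thus accompanied by some lens transcripts and not by others, all of the named ones except CRYGD at low levels.

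**Figure D4:**
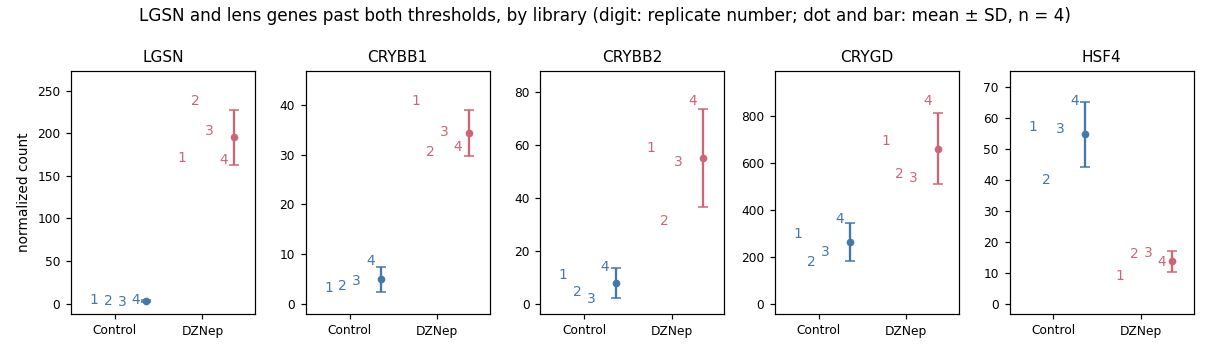
Normalized count (vertical axis, with its own range in each panel) of LGSN and of the 4 lens genes past both thresholds, by library. Digits are replicate numbers, and the dot and bar give the mean ± SD of 4 libraries. CRYBB1 is below 10 in the 4 Control libraries, and HSF4 is the gene that is lower in DZNep.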

How the data were processed

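RNA-seq of 8 HEK293T cultures (Control and DZNep, n = 4 each, called biological replicates in the study's methods) was grouped by the labels. Per the labels and methods, the deposited counts came from the authors' pipeline of Trimmomatic 0.36, STAR 2.5.2b on GRCh38, and featureCounts of Subread 1.5.2. Strandedness and the annotation release were not given in the sources used here. The authors also deposited normalized values (signal), each a count divided by its library's size factor (DESeq2), for 19118 genes with more than 80 counts. The smallest total there was 81.

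Symbols for 56410 of 57500 identifiers and gene positions came from GENCODE. Counts were tested in edgeR 4.0.16 (R 4.3.3; TMM, filterByExpr, glmQLFit and glmQLFTest), leaving 19171 genes, all 9 members among them, with Benjamini-Hochberg adjustment. Calls took an adjusted p under 0.05, alone or with an absolute log2 fold change over 1. RPKM were computed from the counts and MANE Select lengths. In simulated counts for 18079 genes, 96 of 100 genes changed 4-fold and 88 of 100 changed 3-fold were recovered, with 14 unchanged genes called. The changed genes were drawn above a floor of expression that GLS2 (average log2 CPM -0.56) did not reach. Changes under 3-fold were not simulated, so their recovery is not known.

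The members and lists were chosen with earlier results of these data known. The genes named were the members, genes of the non-marker lists past both thresholds, the neighbours of LGSN, the genes beside it in the order of fold change and the 3 most like LGSN or GLUL. Other genes named by the adjusted p alone, marker genes and ASNS were chosen after their values were seen. Results for some genes, 1 paralog ratio among them, are not reported here.

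Libraries of the same replicate number deviated together from their group means (r = 0.1359, 0.4924, 0.4292 and 0.6729 for numbers 1 to 4), so the numbers were taken to pair them, although Control 1 correlated best with DZNep 4 (0.5294). Alternatives were DESeq2 1.42.0, limma 3.58.1, library sizes alone, 2 other count filters, the replicate block and leaving out each library. The exon length alternative was chosen after seeing the data. Library totals limit precision for low genes such as LGSN and GLS2.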

Additional observations from a re-analysis of the deposited data

How the results depend on the processing

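GLUL, GLUD2, GFPT2 and GOT1 kept their direction and their side of the threshold in 16 alternatives each, and LGSN ran from 5.54 to 6.03, with no value where 10 counts were required in every library (nor for CRYBB1 and CRYBB2). With the replicate block no member changed its call, and GLUD2 had a log2 fold change of 1.74 (adjusted p = 1.28e-05). GLUD1 had an adjusted p above 0.05 with library sizes alone (-0.40, 0.0994) and with every gene of at least 1 count (-0.45, 0.12). The same held without Control 2, Control 3 or any 1 of the 4 DZNep libraries (-0.52 to -0.39). Without Control 1 (-0.53, 0.0346) or Control 4 (-0.51, 0.0297) GLUD1 stayed under 0.05. GOT2 turned to -0.0008 without Control 4 (range to 0.17). GPT had an adjusted p of 0.0555 with library sizes alone, and 0.0172 to 0.112 without single libraries. Genes of the wider lists that rose numbered 2 with library sizes alone and 0 to 1 without single libraries (0 without Control 3), and those that fell numbered 5 with library sizes alone, 5 in limma and 5 to 10 without single libraries (5 without Control 2). Of all genes, 1141 rose where 10 counts were required in every library, against 2041. The ratios under the replicate block (2.27 for GLUD2 over GLUD1, -1.11 for GFPT2 over GFPT1, 0.69 for GOT2 over GOT1) equal the differences of the group means by construction. Without single libraries they ran from 1.99 to 2.53, -1.25 to -0.93 and 0.62 to 0.81, and neither test can pass the threshold with so few libraries. With exon lengths in place of MANE Select, shares were 0.0455% and 1.70% for LGSN, 4.15% and 16.5% for GLUD2, 38.4% and 22.4% for GFPT2 and 66.4% and 76.3% for GOT2 (Control and DZNep). The cause of these shifts was not tested.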

Other observations

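GLUL is a known marker of astrocytes and of hepatocytes, and short marker lists of both were looked at beside it. Of 4 astrocyte transcripts, GFAP rose from a normalized count of 38.4 ± 6.19 to 260 ± 17.5 (SD, n = 4; log2 fold change 2.74, adjusted p = 1.04e-05) and AQP4 from 39.7 ± 19.8 to 153 ± 41.3 (1.90, adjusted p = 0.00239), while ALDH1L1 did not pass (0.27, adjusted p = 0.441) and S100B had too few counts to test. Past both thresholds 2 of the 3 tested astrocyte transcripts rose, against 10.6% of all genes. The summed normalized count of the 4 astrocyte transcripts ran from 95.6 to 168 in Control and from 463 to 547 in DZNep. Of 4 hepatocyte transcripts CPS1 alone was tested (log2 fold change 0.02, adjusted p = 0.962), ALB had at most 8 counts in any library, and TTR, too low to test, had 0, 1, 0 and 0 counts in Control and 13, 18, 8 and 14 in DZNep. Blood markers summed to 148 to 304 in Control and 159 to 354 in DZNep, with HBB at 0 in every library, while CD3E, also too low to test, had 0 counts in the 4 Control libraries and 9, 21, 18 and 36 in DZNep. The part of these transcripts in the GLUL result was not tested.

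The 4 fibroblast markers summed to 3324 to 6845 in Control and 2804 to 6970 in DZNep. Past both thresholds 1 of them rose, against 10.6% of all genes. This was LUM, from a normalized count of 100 ± 21.4 to 433 ± 80.5 (SD, n = 4, log2 fold change 2.08, adjusted p = 6.24e-05). COL1A1 (0.33, adjusted p = 0.345), DCN (0.36, adjusted p = 0.513) and COL1A2 (-0.43, adjusted p = 0.714) did not pass. COL1A2, a collagen transcript singled out after its values were seen, had a normalized count of 15.3 in DZNep 2 against 1647, 1072 and 1550 in DZNep 1, 3 and 4. COL1A1 in the same library was 2365, within the range of the Control libraries (2248 to 4386). It was below the 4682, 4300 and 4293 of DZNep 1, 3 and 4. DCN was 70.1 in DZNep 2, against 219, 220 and 213 in DZNep 1, 3 and 4.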
